A study of Homo sapiens with 20 samples.

Results

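A set of 9 genes that are widely used as readouts of the transcriptional co-activator YAP and of the response to serum was followed in Caco-2 cells exposed to bacteria or to bacterial culture supernatants. They were CCN1 (older name CYR61), CCN2 (older name CTGF), THBS1, F3, CRIM1, ANKRD1, AMOTL2, AJUBA and LATS2. Members were taken as the probe sets to which the platform annotation gives one of these symbols, which yielded 24 of 54675 probe sets and 9 of 19775 named genes. CCN2, ANKRD1, AMOTL2 and F3 had 1 probe set each, CCN1 had 2, CRIM1 had 3, AJUBA and LATS2 had 4 each and THBS1 had 7. Each gene was represented by its probe set with the highest mean signal over the 20 arrays, and its other probe sets are given beside it.

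YAP and its relative TAZ (gene WWTR1) enter the nucleus when the kinases of the Hippo pathway are inactive, and there they bind TEAD factors on the promoters and enhancers of target genes. LATS1 and LATS2 are the kinases that phosphorylate YAP and hold it in the cytoplasm, and several YAP targets, LATS2, AJUBA and AMOTL2 among them, encode proteins that feed back on the pathway. Serum acts on some of the same genes through actin, the co-activators MRTF-A and MRTF-B and the serum response factor SRF. Matricellular proteins such as CCN1, CCN2 and thrombospondin-1 are secreted into the matrix, where they signal through integrins and other receptors rather than serve as structural parts. In the intestinal epithelium YAP activity is known from crypts and from regeneration after injury.

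Caco-2 cells come from a human colon carcinoma and come to resemble enterocytes after confluence. Here they had differentiated on inserts for 5 days. RNA was measured on 20 HG-U133 Plus 2.0 arrays that fall into 2 sets. In the probiotic set of 14 arrays, labelled from 5 µg of RNA, there were 7 groups of 2 arrays. Each Caco-2 cell met 20 to 100 bacteria for 8 h in the co-cultures, which used live L. acidophilus NCFM, B. lactis 420 or L. salivarius Ls-33. Cell-free supernatants of the same strains, at 10% of the medium, were given for 24 h. The shared control was medium alone for 8 h, so for the probiotic supernatants treatment and time cannot be told apart. In the E. coli set of 6 arrays, labelled from 1 µg of RNA, 3 arrays were from cells given 5% cell-free supernatant of E. coli O157:H7 for 24 h, and 3 from cells in medium alone for 24 h. Supernatants carried growth broth and glucose with them, and a broth-only control was not analysed here. The probiotic samples were run in duplicate according to the series text, so the 2 arrays of such a group could share 1 culture. All p-values measure the spread between arrays. Each treatment was set against the medium of its own array set. A line in culture stands for the epithelium without stroma, blood or immune cells, and in such bulk samples fewer cells of a kind and less RNA per cell cannot be told apart.

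The arrays were alike in overall signal, with medians between 2.66 and 2.72 on the log2 scale and correlations between 0.994 and 0.997 within the 13 pairs of arrays of a group. The difference between 3′ and 5′ actin probe sets, a sign of RNA length, was 1.08 to 1.54 in co-cultures and 1.02 to 1.11 with probiotic supernatants, against 0.80 to 0.88 in 8 h medium. It was 2.12 to 2.22 with E. coli supernatant, against 1.90 to 2.17 in 24 h medium. The same difference for GAPDH separated these groups, at 0.246 to 0.337 with E. coli supernatant and 0.117 to 0.223 in 24 h medium. Of 10 enterocyte and epithelial markers all 10 were on the array, and none averaged under 4 in any group. Their levels were not constant. With E. coli supernatant 4 were called higher and 4 lower, with log2 changes from -2.00 to 1.52. In co-cultures of NCFM, B. lactis 420 and Ls-33, 2, 3 and 4 were called higher and 4, 3 and 3 lower. The lowest changes there were -1.76, -1.62 and -1.41. Shares over all genes tested are given below with each comparison. Endothelial and leukocyte markers were low except PECAM1, which averaged 7.32 to 9.26 over the groups, and CD14 and ITGAM, which reached 4.84 and 5.01. Of 7 fibroblast markers 4 averaged under 4 in every group, DCN at most 2.49, while COL1A1 was at 10.24 to 11.40 and LUM at 11.06 to 11.74. The summed signal of the fibroblast list was 11.89 to 12.00 with E. coli supernatant and 12.28 to 12.69 in 24 h medium. The endothelial list summed to 7.43 to 7.54 with E. coli supernatant and 8.68 to 8.91 in 24 h medium, with PECAM1 lower by 1.44. In co-cultures PECAM1 was called lower by 0.34 to 0.46 and COL3A1 by 0.62 to 1.07. Of 5 fibroblast markers tested there, 1, 1 and 2 were called higher with NCFM, B. lactis 420 and Ls-33. The fibroblast list summed to 12.26 to 12.35 with NCFM cells and 12.12 to 12.25 with B. lactis 420 cells. It was 12.34 to 12.41 with Ls-33 cells, against 12.08 to 12.17 in 8 h medium. The leukocyte list summed to 5.85 to 6.20 with E. coli supernatant and 5.13 to 5.42 in 24 h medium, while PTPRC, which marks all leukocytes, averaged at most 2.09 in any group. The part of RNA length or of these markers in the changes below was not tested.

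Promoter windows of RefSeq (GRCh38.p14) were available for 7 of the 9 genes, in 9 windows that run from 250 bases before the transcript start to 50 bases after it, and CCN1 and CRIM1 had none. The 250 bases before the start are shown for CCN2, ANKRD1 and THBS1, which differ in the number of TEAD motifs they hold, and for F3, which holds none. All read 5′ to 3′ on the strand of the gene, with GGAATG, the TEAD motif, in capitals. In that build the genes lie on chromosomes 1 (CCN1 and F3), 2 (CRIM1), 3 (AMOTL2), 6 (CCN2), 10 (ANKRD1), 13 (LATS2), 14 (AJUBA) and 15 (THBS1). The windows lie at chr6:131951373-131951622 on the minus strand for CCN2, chr10:90921088-90921337 on the minus strand for ANKRD1, chr15:39580829-39581078 on the plus strand for THBS1 and chr1:94541760-94542009 on the minus strand for F3.
CCN2: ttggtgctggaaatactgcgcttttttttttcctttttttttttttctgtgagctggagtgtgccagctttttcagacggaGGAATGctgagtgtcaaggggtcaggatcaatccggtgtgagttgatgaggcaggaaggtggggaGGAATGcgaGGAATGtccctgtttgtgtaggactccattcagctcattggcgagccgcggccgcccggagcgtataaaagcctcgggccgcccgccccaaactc
ANKRD1: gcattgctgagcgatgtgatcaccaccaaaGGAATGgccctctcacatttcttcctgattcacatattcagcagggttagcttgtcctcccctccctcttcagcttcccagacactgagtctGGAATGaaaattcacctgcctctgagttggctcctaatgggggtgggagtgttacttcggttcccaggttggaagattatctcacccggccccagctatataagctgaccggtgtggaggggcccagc
THBS1: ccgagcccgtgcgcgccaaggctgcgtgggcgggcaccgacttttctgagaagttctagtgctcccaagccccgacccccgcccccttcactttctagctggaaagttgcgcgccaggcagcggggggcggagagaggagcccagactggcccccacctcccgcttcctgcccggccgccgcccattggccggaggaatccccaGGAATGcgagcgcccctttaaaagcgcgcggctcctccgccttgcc
F3: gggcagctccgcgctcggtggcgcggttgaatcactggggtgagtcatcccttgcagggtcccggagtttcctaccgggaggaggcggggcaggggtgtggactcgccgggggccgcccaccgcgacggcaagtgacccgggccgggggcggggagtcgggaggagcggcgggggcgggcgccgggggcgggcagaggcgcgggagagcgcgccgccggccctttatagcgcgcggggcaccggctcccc

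Searched on both strands, GGAATG stood 3 times in the window of CCN2, with first bases 169, 104 and 95 before the start. ANKRD1 held it 2 times, at 220 and 128 bases before the start. THBS1 held it once at 46 bases, one of 2 AJUBA windows once at 59 bases, one of 2 AMOTL2 windows once at 69 bases on the opposite strand, and LATS2 once at base 10 after the start. Of all 35116 promoter windows, 14% held at least 1 copy, 1.37% at least 2 and 0.128% at least 3. The genes are known as YAP and TEAD targets, so these counts are not independent of their choice. The AP-1 motif TGANTCA, which overlaps none of the TEAD copies, stood 2 times in the F3 window, 223 and 210 bases before the start, and once in that of ANKRD1, at 195 bases. At least 1 copy of it stood in 7.71% of all windows and at least 2 in 0.515%. No CArG box, the motif of SRF, was found in any of the 9 windows, against 1.29% of all windows. A match describes the letters and does not show that a factor binds there.

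With E. coli O157:H7 supernatant 8 of the 9 genes rose against 24 h medium, by 1.45-fold for THBS1 to 9.37-fold for CCN1. F3, which encodes tissue factor, the cell-surface starter of coagulation, was not called. Of all 11865 genes tested, 36.3% were called higher and 27.8% lower, so a rise was common. At least 2-fold rises were rarer, at 11.9% of genes tested, and 6 of the 9 genes were among them. In all 8 genes called the 3 treated arrays lay above the 3 medium arrays, which held for 38.6% of genes tested. Genes were called at a Benjamini-Hochberg adjusted p under 0.05 in limma, over all genes tested. A gene was tested if its mean over the arrays of its set was at or above the 40th percentile, a floor of 2.78 on the log2 scale in the E. coli set and 2.74 in the probiotic set. All 9 genes passed, ANKRD1 only through the treated arrays of the E. coli set, so its count there is not independent of the filter.

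**Figure D1:**
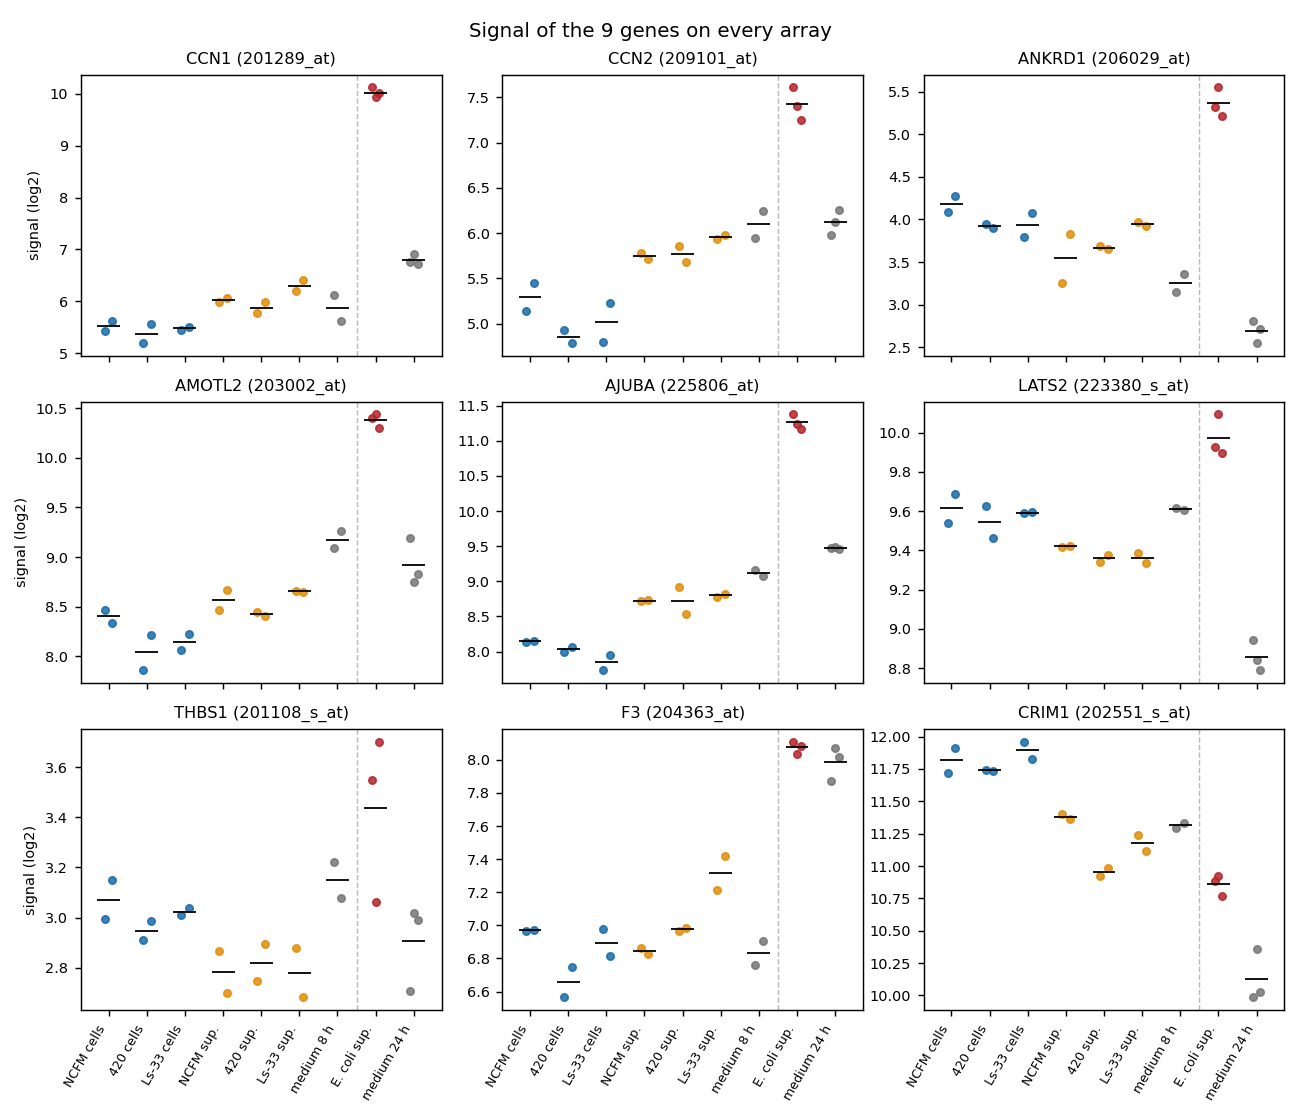
Signal (log2, vertical axis) of the representative probe set of each of the 9 genes on every array, by group (horizontal axis; cells are co-cultures, sup. are supernatants). Points are arrays, bars are group means, and the dashed line parts the probiotic set from the E. coli set. With E. coli supernatant all genes but F3 lie above 24 h medium, while CCN2, AMOTL2 and AJUBA lie below 8 h medium in the co-cultures.

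Among the secreted proteins CCN1, which binds integrins and is induced early by serum, changed the most. Its signal (201289_at) was 10.12, 9.93 and 10.01 with E. coli supernatant, against 6.75, 6.92 and 6.71 in medium. The groups lay far apart, and the spread within each was small beside the gap. Means were 10.02 ± 0.10 with E. coli supernatant and 6.79 ± 0.11 in medium (SD, n = 3 each), a log2 change of 3.23 with a standard error of 0.09 (limma adjusted p = 2.46e-10), the 55th highest of 11865 genes. The second CCN1 probe set (210764_s_at) had 8.32, 8.18 and 8.15 with E. coli supernatant, against 4.80, 3.68 and 4.08 in medium, a log2 change of 4.03.

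CCN2, a relative of CCN1 best known from fibrosis, had a signal of 7.61, 7.40 and 7.26 with E. coli supernatant, against 5.98, 6.13 and 6.26 in medium. All treated arrays were higher than any medium array. The rise was 2.46-fold, 1.30 on the log2 scale with a standard error of 0.13 (limma adjusted p = 4.19e-06).

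THBS1, which encodes the matrix glycoprotein thrombospondin-1, was near the floor. Its representative probe set (201108_s_at) had 3.55, 3.06 and 3.70 with E. coli supernatant, against 2.71, 3.02 and 2.99 in medium. The second treated array was barely above the highest medium array, and the change was 0.53 with a standard error of 0.17 (limma adjusted p = 0.0179). The call was lost without the first medium array (0.43, adjusted p = 0.0558), the first treated array (0.48, 0.0620) or the third treated array (0.40, 0.0818). Other probe sets of THBS1 showed larger changes, with 3.91, 3.72 and 3.85 with E. coli supernatant against 2.40, 2.12 and 2.04 in medium for 201110_s_at. In a fit over every named probe set with no filter, 5 of the 7 THBS1 probe sets were called higher, by 0.43 (239336_at) to 1.85 (235086_at). The other two, 201107_s_at at 0.23 and 215775_at at -0.01, were not called.

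Of the genes for membrane proteins, CRIM1, a transmembrane protein that binds bone morphogenetic proteins, had 10.88, 10.93 and 10.77 with E. coli supernatant, against 9.98, 10.36 and 10.03 in medium. Its groups did not overlap, and it rose 1.66-fold (log2 change 0.73, standard error 0.09, limma adjusted p = 2.16e-05). Its other probe sets were higher by 0.60 and 0.38, both called in the fit over probe sets. F3 had 8.11, 8.03 and 8.08 with E. coli supernatant, against 7.87, 8.07 and 8.01 in medium. The arrays of F3 overlapped, and the change of 0.09 had a 95% confidence interval from -0.12 to 0.29 (limma adjusted p = 0.431). After quantile normalization of all 20 arrays together its sign turned, to -0.0027.

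ANKRD1 encodes a nuclear ankyrin-repeat protein first studied in heart and muscle. Its signal was 5.32, 5.55 and 5.21 with E. coli supernatant, against 2.81, 2.55 and 2.71 in medium, where the mean of 2.69 was under the floor. It rose 6.37-fold (log2 change 2.67, standard error 0.15, limma adjusted p = 2.61e-08), the 119th highest change. The medium signal was near the low end of the scale, so the size of the fold is uncertain. With no filter the call held (adjusted p = 2.05e-09 over every named probe set).

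The 3 genes whose products act on the Hippo pathway all rose with E. coli supernatant. AMOTL2, a member of the angiomotin family that binds YAP at cell junctions, had 10.41, 10.44 and 10.30 with E. coli supernatant, against 9.19, 8.75 and 8.83 in medium. AJUBA, a LIM protein that restrains LATS kinases, had 11.38, 11.24 and 11.17 with E. coli supernatant, against 9.48, 9.49 and 9.46 in medium. LATS2 had 9.93, 10.09 and 9.90 with E. coli supernatant, against 8.95, 8.84 and 8.79 in medium. None of the 3 overlapped between groups. The rises were 2.75-fold for AMOTL2 (limma adjusted p = 1.90e-07), 3.45-fold for AJUBA (1.00e-09) and 2.16-fold for LATS2 (1.92e-07). All 4 AJUBA probe sets were called in the fit over probe sets, at log2 changes of 1.77 to 3.47. LATS2 was called in 3 of its 4, at 1.11, 1.35 and 2.43, and 223379_s_at, a low signal, was not (0.21). In that fit 20 of the 24 probe sets of the 9 genes were called higher and none lower, where 20% of all 41091 named probe sets were called higher. That share had no filter and includes low probe sets, with 24655 at or above the 40th percentile. Among genes tested it was 36.3%. Probe sets of the same gene are also not independent.

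In co-culture with live probiotic bacteria for 8 h the 9 genes did not move together. CCN2, AMOTL2 and AJUBA fell with all 3 strains, and ANKRD1 and CRIM1 rose with all 3. CCN1 was called lower with B. lactis 420 alone, a call that turned on single arrays, and LATS2, THBS1 and F3 were not called. With NCFM 2 genes were called higher, where 16.8% of genes tested were, and 3 lower, where 18.4% were. With B. lactis 420 the counts were 2 higher (18.3% of genes tested) and 4 lower (16.9%). With Ls-33 they were 2 higher (19.4%) and 3 lower (19.3%). CCN2, AMOTL2 and AJUBA fell at least 2-fold with B. lactis 420, where 2.33% of genes tested did, and with Ls-33, where 2.66% did, and less than 2-fold with NCFM, where 2.52% of genes tested fell at least 2-fold. The 3 comparisons share the same 2 medium arrays, so their agreement is not independent. With 2 arrays a group, arrays also lay apart from medium in changes not called, F3 with NCFM and with B. lactis 420 among them. The share of all genes tested in which they did is not given here. The actin 3′ to 5′ difference also moved with these groups (1.08 to 1.54 in co-cultures, 0.80 to 0.88 in 8 h medium), and its part in the changes was not tested.

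**Figure D2:**
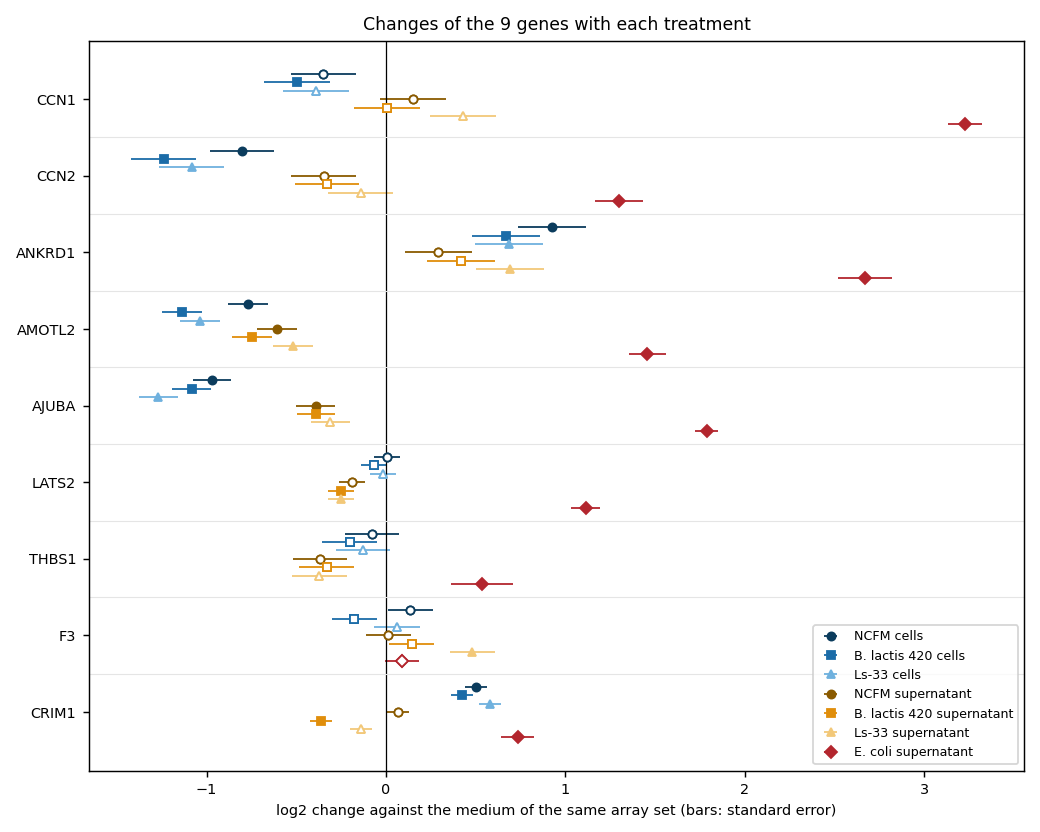
Log2 change (horizontal axis) of each of the 9 genes in each treatment against the medium of its own array set. Filled symbols were called at an adjusted p under 0.05, open ones were not, and bars are standard errors. In co-cultures (blue) CCN2, AMOTL2 and AJUBA lie left of 0 and ANKRD1 and CRIM1 right of it, while with E. coli supernatant (red) all genes but F3 lie right of 0 and are called.

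CCN2 had 5.14 and 5.45 with NCFM, 4.93 and 4.78 with B. lactis 420 and 4.80 and 5.22 with Ls-33, against 5.95 and 6.24 in 8 h medium. All 6 co-culture arrays were below both medium arrays. The log2 changes were -0.80 (limma adjusted p = 0.00172), -1.24 (2.34e-05) and -1.08 (8.68e-05), each with a standard error of 0.18.

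AMOTL2 had 8.47 and 8.34 with NCFM, 7.86 and 8.22 with B. lactis 420 and 8.06 and 8.22 with Ls-33, against 9.09 and 9.26 in 8 h medium. AJUBA had 8.14 and 8.15 with NCFM, 7.99 and 8.07 with B. lactis 420 and 7.73 and 7.96 with Ls-33, against 9.16 and 9.08 in 8 h medium. For both genes every co-culture array was lower than the lowest medium array. On the log2 scale AMOTL2 fell by 0.77 (NCFM), 1.14 (B. lactis 420) and 1.04 (Ls-33), and AJUBA fell by 0.97, 1.08 and 1.27. The largest of these 6 limma adjusted p-values was 2.32e-05, for AMOTL2 with NCFM. Probe sets 1553764_a_at and 225807_at of AJUBA fell as well, by 0.77 to 1.84. The low 243446_at was not called (0.19, 0.04 and 0.05).

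CCN1 had 5.42 and 5.62 with NCFM, 5.19 and 5.56 with B. lactis 420 and 5.45 and 5.51 with Ls-33, against 6.12 and 5.62 in 8 h medium, where its 2 arrays were far apart. No co-culture array reached the lower medium array, but the highest, at 5.62, was next to the lower medium array. The changes were -0.35 with NCFM (limma adjusted p = 0.150), -0.49 with B. lactis 420 (0.0415) and -0.39 with Ls-33 (0.101). The B. lactis 420 call was lost without the first medium array (-0.25, adjusted p = 0.408), without the first B. lactis 420 array (-0.31, 0.322), without the second Ls-33 array, which enters only through the shared spread (-0.49, 0.0502), with no filter (0.0503) and with only the groups compared in the fit (0.0793). Without the second medium array CCN1 was called lower with NCFM (-0.59, 0.0411) and Ls-33 (-0.64, 0.0263) as well. The other CCN1 probe set changed by 0.04, -0.16 and -0.13, none called. Whether CCN1 and CCN2 differed from each other in their response was not tested.

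ANKRD1 had 4.08 and 4.27 with NCFM, 3.94 and 3.90 with B. lactis 420 and 3.80 and 4.08 with Ls-33, against 3.15 and 3.35 in 8 h medium. All 6 co-culture arrays were above both medium arrays. It rose by 0.93 (limma adjusted p = 7.48e-04), 0.67 (0.00915) and 0.69 (0.00688) on the log2 scale, with a standard error of 0.19. The medium mean of 3.25 was near the floor of 2.74, so the size of these rises is uncertain. When the first medium array was left out, neither B. lactis 420 (0.57, adjusted p = 0.0804) nor Ls-33 (0.58, 0.0664) was called, and Ls-33 was not called without its second co-culture array (0.55, 0.0836).

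CRIM1 had 11.72 and 11.91 with NCFM, 11.74 and 11.74 with B. lactis 420 and 11.96 and 11.83 with Ls-33, against 11.30 and 11.33 in 8 h medium. Both medium arrays lay below every co-culture array. The rises were 0.50 (limma adjusted p = 3.21e-06), 0.42 (2.28e-05) and 0.58 (3.71e-07), and the other probe sets rose by 0.47 to 0.80 in the fit over probe sets.

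For LATS2 the probe sets disagreed. The representative one (223380_s_at) had 9.54 and 9.69 with NCFM, 9.63 and 9.46 with B. lactis 420 and 9.59 and 9.60 with Ls-33, against 9.61 and 9.60 in 8 h medium, with changes of 0.0045, -0.07 and -0.02. Probe set 227013_at had 9.02 and 8.91 with NCFM, 8.69 and 8.80 with B. lactis 420 and 8.65 and 8.76 with Ls-33, against 9.21 and 9.38 in 8 h medium. It fell by 0.33 (adjusted p = 0.0134 over every named probe set), 0.55 (1.55e-04) and 0.59 (5.73e-05). The weak probe set 223379_s_at fell with NCFM and B. lactis 420 (-0.56 and -0.53), and 230348_at was not called with any strain. No statement on LATS2 in co-culture therefore holds for all of its probe sets.

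THBS1 was at 2.91 to 3.15 in the co-cultures, against 3.22 and 3.08 in 8 h medium, and no THBS1 probe set was called with any strain. The gene F3 was not called either, with changes of 0.14, -0.18 and 0.06. Its arrays were 6.97 and 6.97 with NCFM, 6.56 and 6.75 with B. lactis 420 and 6.98 and 6.81 with Ls-33, against 6.76 and 6.90 in 8 h medium.

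CCN2, AMOTL2 and AJUBA thus fell in all 3 co-cultures and rose with E. coli supernatant, while ANKRD1 and CRIM1 rose in both. Of all 1350 genes that fell in all 3 co-cultures, 225 rose with E. coli supernatant, and of the 1149 that rose in all 3 co-cultures, 670 did. Live cells and supernatant, 8 h and 24 h, and the array sets differ between these comparisons, so their difference was not tested. In a moderated F-test of the 3 strains among the co-cultures none of the 9 genes was called, where 13.7% of genes tested were. Of the 9, AMOTL2 (range of means 0.37, limma adjusted p = 0.0684) came closest, and the unadjusted p was under 0.05 for AMOTL2 (0.0112) and AJUBA (0.0370). AMOTL2 was called with quantile normalization (adjusted p = 0.0271) and without the second B. lactis 420 array (0.0118), and AJUBA in probe set 1553764_a_at (0.0329).

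**Figure D3:**
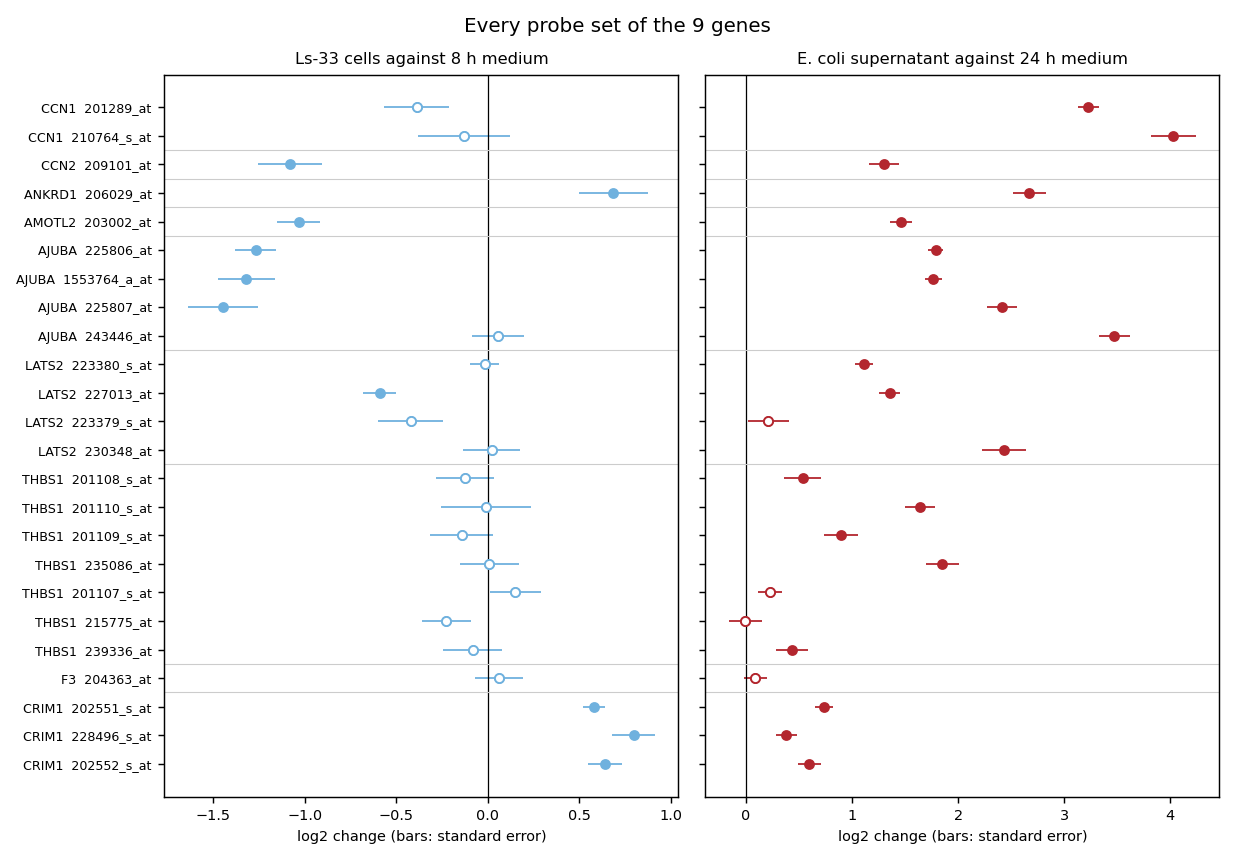
Log2 change (horizontal axis) of all 24 probe sets of the 9 genes (vertical axis) with Ls-33 cells against 8 h medium, left, and with E. coli supernatant against 24 h medium, right, from the fit over every named probe set. Filled symbols were called and bars are standard errors. With E. coli supernatant 20 of the 24 are called and lie right of 0; with Ls-33 cells the LATS2 and AJUBA probe sets differ among themselves, and the CRIM1 ones lie together.

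With cell-free supernatants of the probiotics for 24 h, 2 to 4 of the 9 genes were called with each strain, and AMOTL2 was the one that fell with all 3. With NCFM supernatant 2 genes were called lower, AMOTL2 and AJUBA, where 5.98% of genes tested were, and none higher, where 5.28% were. With B. lactis 420 supernatant AMOTL2, AJUBA, LATS2 and CRIM1 were called lower (9.2% of genes tested) and none higher (5.98%). With Ls-33 supernatant AMOTL2 and LATS2 were called lower (8.14%), and ANKRD1 and F3 higher (8.48%). CCN1, CCN2 and THBS1 were not called with any of the 3. The comparisons share the 2 arrays of 8 h medium. Groups also lay apart from medium in changes not called, THBS1 with all 3 supernatants among them. Separation of arrays was thus not particular to the genes called. With 2 arrays a group it is weak evidence, and its share over all genes tested is not given here.

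AMOTL2 had 8.47 and 8.67 with NCFM supernatant, 8.45 and 8.40 with B. lactis 420 supernatant and 8.66 and 8.65 with Ls-33 supernatant, against 9.09 and 9.26 in 8 h medium. All 6 supernatant arrays were below both medium arrays. It fell by 0.61 (limma adjusted p = 0.00159), 0.75 (2.06e-04) and 0.52 (0.00323) on the log2 scale. The Ls-33 call was lost without the second medium array (-0.43, adjusted p = 0.0556).

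AJUBA had 8.72 and 8.73 with NCFM supernatant, 8.92 and 8.53 with B. lactis 420 supernatant and 8.78 and 8.82 with Ls-33 supernatant, against 9.16 and 9.08 in 8 h medium. Again no array overlapped with medium, also with Ls-33 supernatant, where the change was not called. The changes were -0.39 (limma adjusted p = 0.0229), -0.39 (0.0187) and -0.31 (0.0541), of which the first 2 were called. Both calls were lost without either medium array (adjusted p = 0.0627 to 0.130), where the changes were -0.35 to -0.43. The NCFM call was lost without either NCFM array (0.0861 and 0.128) and the B. lactis 420 call without the second B. lactis 420 array (-0.20, 0.312). Both were also lost with no trend in the spread estimate (adjusted p = 0.0805 and 0.0676). The Ls-33 change was called with only the groups compared (0.0137), with the filter at the 60th percentile (0.0416) and without either B. lactis 420 supernatant array (0.0253 and 0.0245) or the second NCFM co-culture array (0.0498), at the same -0.31. No other AJUBA probe set was called with a supernatant.

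LATS2 was lower by 0.25 with B. lactis 420 supernatant (limma adjusted p = 0.0244) and by 0.25 with Ls-33 supernatant (0.0238), and its change of -0.19 with NCFM supernatant was not called. Its arrays were 9.34 to 9.42 over the 3 supernatants, against 9.61 and 9.60 in 8 h medium, without overlap. Both calls were lost without either medium array (adjusted p = 0.0931 to 0.0991) and without either array of the treatment itself (0.0683 to 0.163), and with no trend (0.0794 and 0.0779). In probe set 227013_at the changes were larger, at -0.48 and -0.41 with B. lactis 420 and Ls-33 supernatant, both called in the fit over probe sets. In that fit the representative probe set was not called (adjusted p = 0.0721 and 0.0735), nor were 223379_s_at and 230348_at.

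ANKRD1 rose with Ls-33 supernatant, to 3.96 and 3.92 against 3.15 and 3.35 in 8 h medium (log2 change 0.69, limma adjusted p = 0.0160). It had 3.26 and 3.83 with NCFM supernatant and 3.69 and 3.65 with B. lactis 420 supernatant, changes of 0.29 and 0.42 that were not called. The medium signal was near the floor here as well. The Ls-33 call was lost without the first medium array (0.59, adjusted p = 0.117) or without either Ls-33 array (0.67, 0.0833, and 0.71, 0.0819).

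F3 had 7.21 and 7.42 with Ls-33 supernatant, against 6.76 and 6.90 in 8 h medium. It rose 1.40-fold (log2 change 0.48, limma adjusted p = 0.0126), with both treated arrays above both medium arrays. The call was lost without the first medium array (0.41, adjusted p = 0.0997) or the second Ls-33 array (0.38, 0.165). NCFM supernatant gave 6.87 and 6.83 and B. lactis 420 supernatant 6.97 and 6.99, neither called.

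CCN2 was not called, with 5.78 and 5.71 with NCFM supernatant, 5.85 and 5.68 with B. lactis 420 supernatant and 5.93 and 5.98 with Ls-33 supernatant, against 5.95 and 6.24 in 8 h medium. CCN1 had 5.99 and 6.06, 5.77 and 5.98, and 6.19 and 6.41 with the supernatants of NCFM, B. lactis 420 and Ls-33, against 6.12 and 5.62 in 8 h medium. The 95% confidence intervals of the change with Ls-33 supernatant were -0.52 to 0.24 for CCN2 and 0.05 to 0.81 for CCN1 (limma adjusted p = 0.654 and 0.117). Without the first medium array CCN1 was called higher with Ls-33 supernatant (0.68, adjusted p = 0.0437). THBS1 was at 2.68 to 2.89 with the supernatants, against 3.22 and 3.08 in 8 h medium, and its changes of -0.37, -0.33 and -0.37 were not called, the last one except with no trend (adjusted p = 0.0483).

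CRIM1 was the only one of the 9 whose level differed among the 3 supernatants by a moderated F-test, where 0.0337% of genes tested did (range of means 0.43, limma adjusted p = 0.0164). It had 10.92 and 10.98 with B. lactis 420 supernatant, 11.40 and 11.37 with NCFM supernatant and 11.24 and 11.11 with Ls-33 supernatant, against 11.30 and 11.33 in 8 h medium. The B. lactis 420 level was 0.36 below medium (adjusted p = 6.47e-04) and 0.43 below NCFM supernatant (adjusted p = 0.0138). Its other probe sets, 228496_s_at and 202552_s_at, were each 0.15 above medium with B. lactis 420 supernatant and not called, and their range over the supernatants was 0.14 and 0.17. The strain by format interaction was also called for CRIM1 alone of the 9 (range 0.35, adjusted p = 0.0414), where 4.4% of genes tested were. F3 had a range of 0.47 among the supernatants with an unadjusted p of 0.00428, and was not called. The strain difference of CRIM1 rested on 1 of 3 probe sets.

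Set directly against each other in a contrast without the medium, co-cultures and supernatants differed in all 9 genes, where 55.8% of genes tested did. The medium arrays still entered the fit through the filter and the shared spread. CCN1 (-0.61), CCN2 (-0.77), AMOTL2 (-0.36), AJUBA (-0.74) and F3 (-0.21) were lower in co-culture, a direction in which 25.2% of genes tested were called. CRIM1 (0.65), ANKRD1 (0.29), THBS1 (0.22) and LATS2 (0.20) were higher, where 30.6% were. All co-culture arrays lay on one side of all supernatant arrays for 6 of the 9 genes, 3 above, where 14.7% of genes tested were, and 3 below, where 13.3% were. For LATS2 the sign was turned in 227013_at (-0.10) and 223379_s_at (-0.19), for THBS1 in 201109_s_at (-0.07), 215775_at (-0.07) and 235086_at (-0.16), and for AJUBA in the low 243446_at (0.04), none of them called. The call of ANKRD1 was lost without the first NCFM supernatant array (0.20, adjusted p = 0.123), and also without the first B. lactis 420 or the second NCFM or Ls-33 co-culture array, or the second B. lactis 420 or Ls-33 supernatant array (0.0537 to 0.0870), and with quantile normalization (log2 difference 0.26). That of F3 was lost without the first B. lactis 420 or second Ls-33 co-culture array or the second Ls-33 supernatant array (0.0678 to 0.0808). That of THBS1 was lost with no filter (0.0679) and without either B. lactis 420 or Ls-33 co-culture array, the second NCFM co-culture array, the first B. lactis 420 supernatant array, or the second NCFM or Ls-33 supernatant array (0.0513 to 0.111). Live cells for 8 h and supernatant for 24 h cannot be told apart in this contrast.

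Other genes known as YAP targets were followed as a list of 15, in the same way. A gene low in medium could pass the filter through the treated arrays. Counts and medians of this list and the next ones are therefore not independent of the filter. The counts of this and the next lists stand against the shares over all genes tested, which were 36.3% higher and 27.8% lower with E. coli supernatant, 16.8% to 19.4% higher and 16.9% to 19.3% lower in the co-cultures, and 5.28% to 8.48% higher and 5.98% to 9.2% lower with the probiotic supernatants. Of the 10 measured in the E. coli set 6 rose and 3 fell with the supernatant, with a median log2 change of 0.98, against 0.05 over all genes tested. The growth-arrest gene GADD45A rose by 1.74, MYOF, a membrane-repair protein, by 1.64 and PTPN14, a phosphatase that binds YAP, by 1.79 (all limma adjusted p of 3.64e-07 or less). In the co-cultures of NCFM, B. lactis 420 and Ls-33, 2, 1 and 2 of 11 fell and 1, 0 and 2 rose. None of these counts was above the share over all genes tested. The receptor kinase AXL was among those that fell with each strain (-0.66 for NCFM, -0.53 for B. lactis 420, -1.04 for Ls-33). With Ls-33 cells NT5E, the ectonucleotidase CD73, rose by 1.27. With the supernatants of NCFM, B. lactis 420 and Ls-33, 1, 1 and 3 of 11 rose and 0, 1 and 0 fell.

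Of 20 measured genes of the Hippo pathway and the TEAD family, 16 rose and none fell with E. coli supernatant, with a median of 0.51. TEAD1, the DNA-binding partner of YAP, rose by 2.15 on the log2 scale, TEAD4 by 1.70 and WWC1, a scaffold that activates LATS kinases, by 1.94. YAP1 itself had a mean of 11.12 with E. coli supernatant and 10.84 in medium, a rise of 0.28 (limma adjusted p = 0.00209). WWTR1, which encodes TAZ, rose by 0.52 (7.09e-04). In co-cultures 3, 4 and 7 of the 20 rose with NCFM, B. lactis 420 and Ls-33, and 1, 2 and 1 fell, so that the rises with NCFM and B. lactis 420 were near the share over all genes. STK3, the kinase MST2 that activates LATS, rose with each strain, by 0.88, 0.62 and 1.04. YAP1 rose with Ls-33 cells (0.27, adjusted p = 0.00268), a call lost without the first Ls-33 array (0.19, 0.0714), and was not called with NCFM (0.01) or B. lactis 420 (0.13). WWTR1 rose by 0.28 with Ls-33 cells, a call lost with no filter (limma adjusted p = 0.0649) or with no trend (0.0562). That call was also lost without either medium array or either Ls-33 co-culture array, at changes of 0.27 to 0.30. With the supernatants of NCFM, B. lactis 420 and Ls-33, 1, 2 and 2 of the 20 rose and 0, 3 and 1 fell.

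Of 18 measured cytoskeletal targets of SRF and MRTF, 11 rose and 2 fell with E. coli supernatant, with a median of 0.48. The actin-binding proteins transgelin (TAGLN, 2.63) and caldesmon (CALD1, 0.79) rose, as did FHL2 (1.59), a LIM-domain co-factor. SRF rose by 0.56 (limma adjusted p = 0.0147), a call lost without the third medium array (0.48, 0.0665) or the third E. coli array (0.39, 0.0873). In the co-cultures 5 of 17 rose with each strain, and 4, 2 and 1 fell with NCFM, B. lactis 420 and Ls-33. TAGLN rose by 1.41, 1.09 and 0.73, and SRF was not called (-0.39, -0.29 and -0.09).

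The early genes of the serum response, induced within minutes of stimulation, were followed as a list of 15. With E. coli supernatant 13 of 14 rose and none fell, with a median of 1.68, led by the transcription factor ATF3 at 5.83 and the phosphatase DUSP1 at 2.64. The list had 14 genes past the filter here, against 11 in the probiotic set. Whether the further ones passed only through the treated arrays was not tested. In co-cultures 7, 4 and 4 of 11 fell with NCFM, B. lactis 420 and Ls-33, and 1 rose with each. EGR1, a zinc-finger factor that serum induces through SRF, fell by 1.86, 2.14 and 1.80, and DUSP1 fell by 0.63, 0.61 and 0.76. With the supernatants of NCFM, B. lactis 420 and Ls-33, 6, 5 and 8 of 11 rose and none fell, among them DUSP1 (0.64, 0.63 and 0.74) and JUN (0.91, 0.85 and 1.26), while CCN1 and CCN2 were not called.

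**Figure D4:**
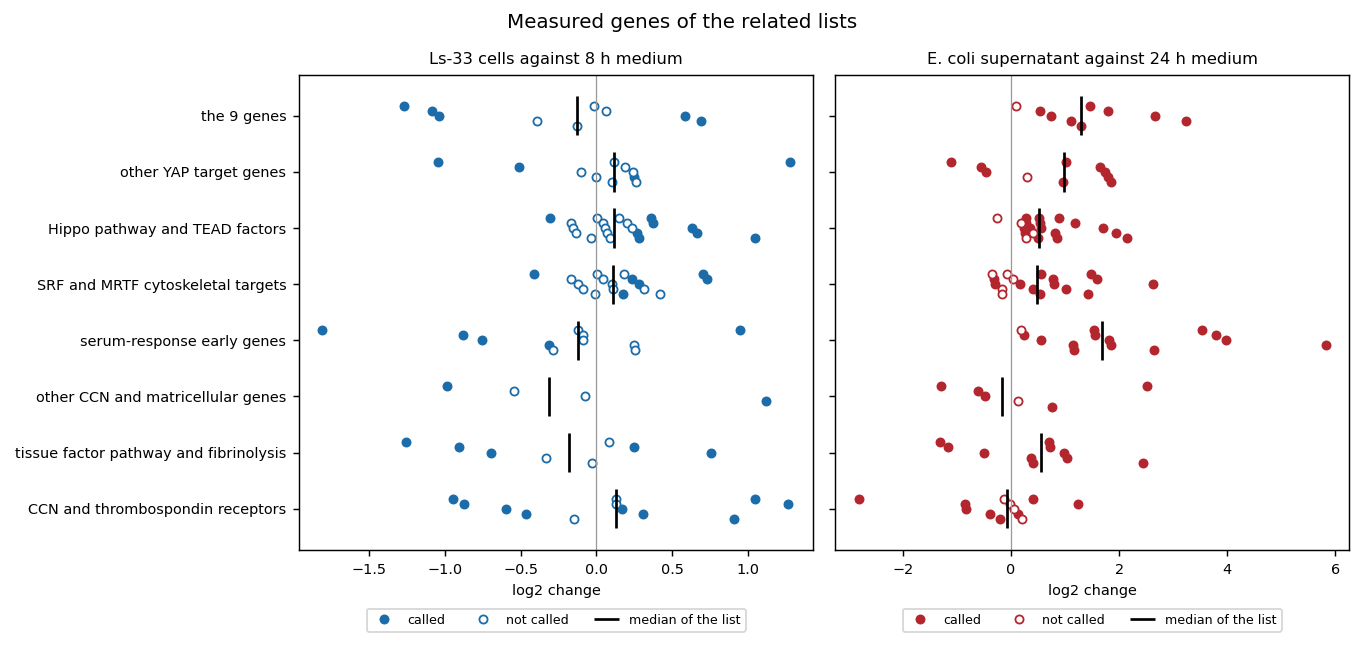
Log2 change (horizontal axis) of the measured genes of the 9-gene set and of 7 related lists (vertical axis) with Ls-33 cells against 8 h medium, left, and with E. coli supernatant against 24 h medium, right. Each point is a gene, filled where called, and the bar is the median of the list. With E. coli supernatant the median of the 9 genes is 1.30 and that of the early genes of the serum response 1.68; with Ls-33 cells they are -0.13 and -0.12.

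Other matricellular genes were mostly too low to test, with 6 of 15 measured in the E. coli set and 4 in the probiotic set. THBS2 rose by 2.52 with E. coli supernatant, while SPARC fell by 0.60 and the cartilage matrix protein COMP by 1.29. SPARC, a collagen-binding matricellular protein, also fell in every co-culture, by 1.38 (NCFM), 1.05 (B. lactis 420) and 0.98 (Ls-33), while periostin (POSTN) rose by 1.12 with both B. lactis 420 and Ls-33 cells. Of 12 receptors for CCN proteins and thrombospondins 3 rose and 5 fell with E. coli supernatant. The integrin subunit ITGAV, a part of CCN receptors, rose by 1.24 and the endocytic receptor LRP1 fell by 2.82. ITGAV also rose in co-culture, by 0.68, 0.75 and 1.04.

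Around tissue factor, 7 of 10 measured genes of coagulation and fibrinolysis rose and 3 fell with E. coli supernatant, with a median of 0.56, while F3 was not called. F2RL2, a thrombin receptor, rose by 2.44 and the plasminogen activator urokinase (PLAU) by 1.04, and coagulation factor X (F10) fell by 1.32. In co-cultures 6, 4 and 3 of 8 fell with NCFM, B. lactis 420 and Ls-33, and 0, 1 and 2 rose. With Ls-33 cells the risers were the protein C receptor PROCR (0.76) and TFPI (0.25). With each supernatant 3 of 8 rose and none fell, and PLAUR, the urokinase receptor, was among them at 0.76, 0.64 and 0.84. TFPI, the inhibitor of tissue factor, rose by 0.17, 0.25 and 0.25 with the supernatants of NCFM, B. lactis 420 and Ls-33.

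Over the 14 arrays of the probiotic set the levels of CCN2 and AJUBA had a Pearson r of 0.94, AMOTL2 and AJUBA 0.86, CCN1 and CCN2 0.74, and AJUBA and CRIM1 -0.83. These describe 14 arrays in 7 groups, pairs of which share a treatment. Among all genes tested, the levels most like CCN2 over these arrays were those of SLC6A6 (r = 0.97), SKA2 (0.96) and H6PD (0.95). With E. coli supernatant SLC6A6 and H6PD had log2 changes of -1.13 and -1.47, the opposite sign to CCN2, while SKA2 changed by 0.21. For CCN1 they were CPEB2 (0.95), CCNI (0.94) and CFAP300 (0.93), which changed by 2.55, -0.29 and -1.11 with E. coli supernatant. For THBS1, whose signal was near the floor, they were CCNG1 (0.90), LRP2 (0.89) and SLC38A12 (0.87). With E. coli supernatant these 3 changed by -1.31, -1.29 and -0.90.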

How the data were processed

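RNA of Caco-2 cells was measured on 20 HG-U133 Plus 2.0 arrays in 9 groups. The authors deposited log2 signals per probe set, made by RMA per the submitters' processing notes. The RMA version is not given in the sources used here. Nor do they say if RMA was run on both sets at once, so no level was compared between the sets. The 54675 probe sets were named from the platform annotation: 41091 had 1 gene symbol, 1801 several, 11721 none and 62 were controls. Symbols were updated to RefSeq through Entrez IDs, 54 of which had no match. The probe set with the highest mean stood for each of 19775 genes, with probe sets that may cross-hybridise (_x_at) used only where a gene had no other. Genes with a mean at or above the 40th percentile were tested.

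Tests used limma 3.58.1 in R 4.3.3 (lmFit, eBayes with a trend), fitted separately to the 14 arrays of the probiotic set and the 6 of the E. coli set, with Benjamini-Hochberg adjustment over 11865 genes and a call under 0.05. Strain differences were moderated F-tests over the 3 strains. Errors are SD between arrays or limma's standard error, and the small number of arrays limits the precision. Genes of the related lists named in the text are those called with the smallest adjusted p in their list, up to 3 per comparison, followed through the other comparisons, and YAP1, WWTR1 and SRF whatever their values. Likeness to CCN1, CCN2 and THBS1 is the Pearson r over the 14 arrays, with the 3 highest named. The fits were tested on simulated data. Alternatives covered the filter, the trend, quantile normalization, the arrays in the fit, other probe sets, each array left out and the replicate number as a block. The 9 genes and the related lists were chosen with earlier results of these data known.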

Additional observations from a re-analysis of the deposited data

Results flagged for a closer look

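CRIM1 differed between strains in 2 tests, both on probe set 202551_s_at. Among the 3 supernatants its group means spanned 0.43 on the log2 scale (limma adjusted p = 0.0164), with 10.92 and 10.98 with B. lactis 420 supernatant, below all arrays of the other two. The difference between co-culture and supernatant also varied between strains, by a range of 0.35 (adjusted p = 0.0414, where 4.4% of genes tested were called). Neither call held without a trend in the spread estimate (adjusted p = 0.482 and 0.263), in either of the other CRIM1 probe sets, or without any one of the NCFM or B. lactis 420 supernatant arrays (0.0528 to 0.145). The second call was also lost without either medium array, the first NCFM, either B. lactis 420 or the first Ls-33 co-culture array, or the second Ls-33 supernatant array (0.0529 to 0.138). Why the probe sets differ was not tested.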

How the results depend on the processing

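The direction and the call of the 9 genes held in 618 of 635 comparisons under other settings, in 1234 of 1314 with 1 array left out and in 70 of 102 in other probe sets. In many of the first 2 counts the direction could not change. The filter and the trend leave a log2 change as it is. So does leaving out an array of a group that is not compared. These totals therefore overstate how firm the results are. Without a trend, 1 of the 9 genes was called with NCFM supernatant, 2 with B. lactis 420 supernatant, 0 among supernatants and 0 in the strain by format interaction. With the next probe set of genes with several, 2 were called with B. lactis 420 supernatant, 1 among co-cultures, 0 among supernatants and 0 in the interaction, and quantile normalization gave 1 among co-cultures. Leaving out 1 array gave 1 to 2 of the 9 with NCFM supernatant, 2 to 4 with B. lactis 420 supernatant, 1 to 5 with Ls-33 supernatant, 0 to 1 in each strain test, 5 to 6, 4 to 6 and 4 to 6 in the co-cultures of NCFM, B. lactis 420 and Ls-33, 7 to 8 with E. coli supernatant and 6 to 9 in the format contrast. With the replicate block the interaction called 0 genes (CRIM1 adjusted p = 0.0540) and no other count changed. The same-numbered arrays did not deviate together (r of -0.071 to 0.055 over 21 pairs of the probiotic set and -0.079 to 0.030 over 3 of the E. coli set). No pairing by number was thus seen. A pairing that touched few genes would not show in this r.

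Signs turned in the values below. Apart from probe sets under the floor, the reported value was called for CRIM1 and AJUBA with B. lactis 420 supernatant and for LATS2 and THBS1 in the format contrast. Probe sets under the floor also turned, and not all of them are listed. Among them AJUBA 243446_at turned in the co-cultures (0.19, 0.04 and 0.05) and with NCFM (0.17) and B. lactis 420 supernatant (0.28). It also turned in the format contrast (0.04), and THBS1 215775_at did with E. coli supernatant (-0.0061). The reported values of these were called too. In other probe sets above the floor, NCFM cells gave 0.042 for CCN1, 0.017 for THBS1 and -0.33 and -0.56 for LATS2. B. lactis 420 supernatant gave 0.044 for AJUBA, 0.021 for THBS1 and 0.15 in each of 2 probe sets for CRIM1. Ls-33 supernatant gave 0.21 and 0.018 for THBS1 and 0.12 and 0.21 for CRIM1. Co-culture against supernatant gave -0.10 and -0.19 for LATS2 and -0.068 for THBS1. Quantile normalization gave -0.0027 for F3 with E. coli supernatant and 0.021 for YAP1 in the format contrast, where leaving out 1 array gave -0.044 to 0.010. With 1 array left out, NCFM cells gave -0.070 to 0.079 for LATS2, -0.051 to 0.075 for YAP1 and -0.0084 to 0.19 for WWTR1. B. lactis 420 cells gave -0.15 to 0.018 for LATS2 and -0.23 to 0.014 for WWTR1, and Ls-33 cells gave -0.021 to 0.14 for F3 and -0.33 to 0.15 for SRF. NCFM supernatant gave -0.093 to 0.40 for CCN1, -0.058 to 0.084 for F3 and -0.38 to 0.10 for SRF. B. lactis 420 supernatant gave -0.24 to 0.25 for CCN1 and -0.46 to 0.025 for SRF, and Ls-33 supernatant gave -0.29 to 0.0062 for CCN2. The causes were not tested.

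Over all genes the calls without a trend were 756 with NCFM supernatant (1336 in the reported fit), 1121 with B. lactis 420 supernatant (1802), 1281 with Ls-33 supernatant (1972), 942 among co-cultures (1629), 0 among supernatants (4) and 146 in the interaction (522). Leaving out 1 array gave as few as 489, 789, 771, 845 and 262 in the same order without the supernatant test, which gave up to 9. Testing every named probe set at or above the 40th percentile, 24655 features in place of 11865, gave 7661, 7042 and 7503 calls with cells of NCFM (4186), B. lactis 420 (4184) and Ls-33 (4591), 14083 with E. coli supernatant (7605), 11916 in the format contrast (6619), 3076 among co-cultures and 910 in the interaction. Signals near the floor limit THBS1, and ANKRD1 in 8 h and 24 h medium.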
